A study of Homo sapiens with 4 samples.

Results

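The comparison described here set the control array of the invasive lung adenocarcinoma line CL1-5 against the control array of its less invasive parent CL1-0. It used 2 of the 4 arrays of a study of PSAT1, an enzyme of serine synthesis, and was chosen by the sample labels. The CL1-5 control carried a non-silencing short hairpin and the CL1-0 control an empty vector. The other arrays came from CL1-0 with a PSAT1 expression vector and CL1-5 with a hairpin against PSAT1, and their values stand beside the controls without serving as replicates. Per the labels, cells of every group were stably transduced and held under puromycin for 2 weeks, and 6 ug of total RNA was labelled with biotin for a one-colour Affymetrix array. Neither the number of clones behind a line nor the date of each culture is given in the sources used here. The controls differ in construct as well as in line, so line and construct cannot be told apart.

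CL1-5 was obtained from CL1-0 by repeated selection of cells that crossed a coated membrane, so the lines share an origin and differ in invasiveness. Invading carcinoma cells degrade and remodel the matrix with secreted and membrane-bound proteases, hold on to it through integrins and CD44, and respond to growth factors through receptors such as EGFR and MET. Cells can also shift between epithelial and mesenchymal states, which differ in their junction proteins, their intermediate filaments and the transcription factors of the SNAI, ZEB and TWIST groups.

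Signals are given after quantile normalization, which gives all 4 arrays the same distribution. Values under 49.3, the pooled median of the probe sets, were set to that floor. A fold against an array at the floor is a lower bound, written "at least". "Higher" and "lower" refer to CL1-5 against CL1-0 and mean a difference of 2-fold or more by size alone, since 1 array per group leaves no replicate and no test. Of 19740 genes with a named probe set, 13697 were above the floor on at least 1 control array and count as measured. Where a line has 2 values, the control stands first and the array with the PSAT1 construct second. The arrays with PSAT1 constructs also form a pair of their own, which shares no array with the controls.

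The deposited signals of the lines were on different scales, whose 75th percentiles were 252 and 272 on the CL1-0 arrays against 177 and 173 on the CL1-5 arrays. The ratio of 3' to 5' probe sets of ACTB, a check of RNA integrity, was 1.18 and 1.22 for CL1-0 against 1.34 and 1.38 for CL1-5. It moved with the line, and its part in the differences was not tested. Across probe sets, log2 signals of the control arrays correlated with Pearson r = 0.931, against 0.986 within CL1-0 and 0.994 within CL1-5. The hairpin target PSAT1 read 3328 in the CL1-0 control, 4579.8 in CL1-0 with PSAT1, 2225 in the CL1-5 control and 176 with the hairpin. The controls thus differed at its brighter probe set by a log2 ratio of -0.58, under the size called here, and at the dimmer one by a log2 ratio of -1.26, from 1171 to 489.

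The labels call the cells type II alveolar cells, the surfactant-producing cells of the alveolus. Of 12 type II markers with a named probe set, 9 were above the floor on each of the 4 arrays, but the defining ones were dim. Surfactant protein SFTPC read 133 and 108 in CL1-0 and 181 and 183 in CL1-5, SFTPB lay between 125 and 161, and the lineage factor NKX2-1 between 66.8 and 84.1, all under the pooled 75th percentile of 214. SFTPD, SLC34A2 and HHIP were at the floor throughout. The summed signal of the list was 2621 and 2666 in CL1-0 against 2809.8 and 2792 in CL1-5, and LPCAT1, an enzyme of surfactant lipid remodelling, was the only member above the 75th percentile on every array. In this list no marker was higher and CTSH, a cathepsin, was the only lower one.

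Markers of other cell types were above the floor to different extents. In the CL1-5 control this held for 6 of 8 type I alveolar, 5 of 8 endothelial, 4 of 9 neuroendocrine and 5 of 11 airway markers. It held for 3 of 10 fibroblast and 1 of 6 basal markers, and for 12838 of all 19740 genes. Some of these markers barely passed the floor of 49.3, such as TEK and CLIC5 at 49.9 and VWF at 55.8. No airway marker differed by 2-fold, and SOX2 was the lower member of the basal list. Of 10 immune markers 9 were at the floor on both controls, PTPRC, CD3E and CD14 among them. In the fibroblast list COL3A1 and POSTN were lower in CL1-5, COL1A2, PDGFRA, FAP and LUM were at the floor, and the summed signal was 2495 and 674 in CL1-0 against 841 and 861 in CL1-5. COL3A1 and POSTN were high on the CL1-0 vector array but at 49.3 and 98.4 on the CL1-0 PSAT1 array. The COL3A1 difference thus belongs to 1 CL1-0 array. POSTN was far lower on the CL1-0 PSAT1 array, yet still above both CL1-5 arrays, which were at the floor. The endothelial list summed to 479 and 408 in CL1-0 and 661 and 595 in CL1-5, with KDR at the floor and PECAM1 higher. Of 9 neuroendocrine markers with a named probe set ENO2 and SCG5 were higher and CHGA lower, and of 8 type I alveolar markers CAV1 and HOPX were higher. In bulk RNA, fewer cells of a type and less RNA per cell cannot be told apart.

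Of the measured genes, 1292 (9.43%) were higher and 1200 (8.76%) lower in the CL1-5 control, together 18.2%. The median log2 ratio was 0.00, as quantile normalization leads to, and 51.8% of the differences were higher. On the deposited signals without further scaling that share was 17.5%, with 720 higher and 3402 lower genes and a median log2 ratio of -0.49, so every direction here is relative to the bulk of genes. The largest differences leaned to the higher side, with 436 higher and 230 lower genes at 4-fold or more, and 97 higher and 45 lower at 16-fold or more. In the second pair of arrays 934 of the 1292 higher genes (72.3%) were again higher and 4 were lower, while 878 of the 1200 lower genes (73.2%) were again lower and 13 were higher. That pair had 1386 higher (10.1%) and 1539 lower genes (11.2%), of which 67.4% and 57.1% were called in the same direction in the controls. With no minimum size, both CL1-5 arrays lay above both CL1-0 arrays at 39.6% of measured genes and below them at 35.3%, and this held for 1253 of the higher and 1159 of the lower calls. Both CL1-5 arrays lay 2-fold or more beyond both CL1-0 arrays at 873 higher (6.37%) and 793 lower genes (5.79%).

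**Figure D1:**
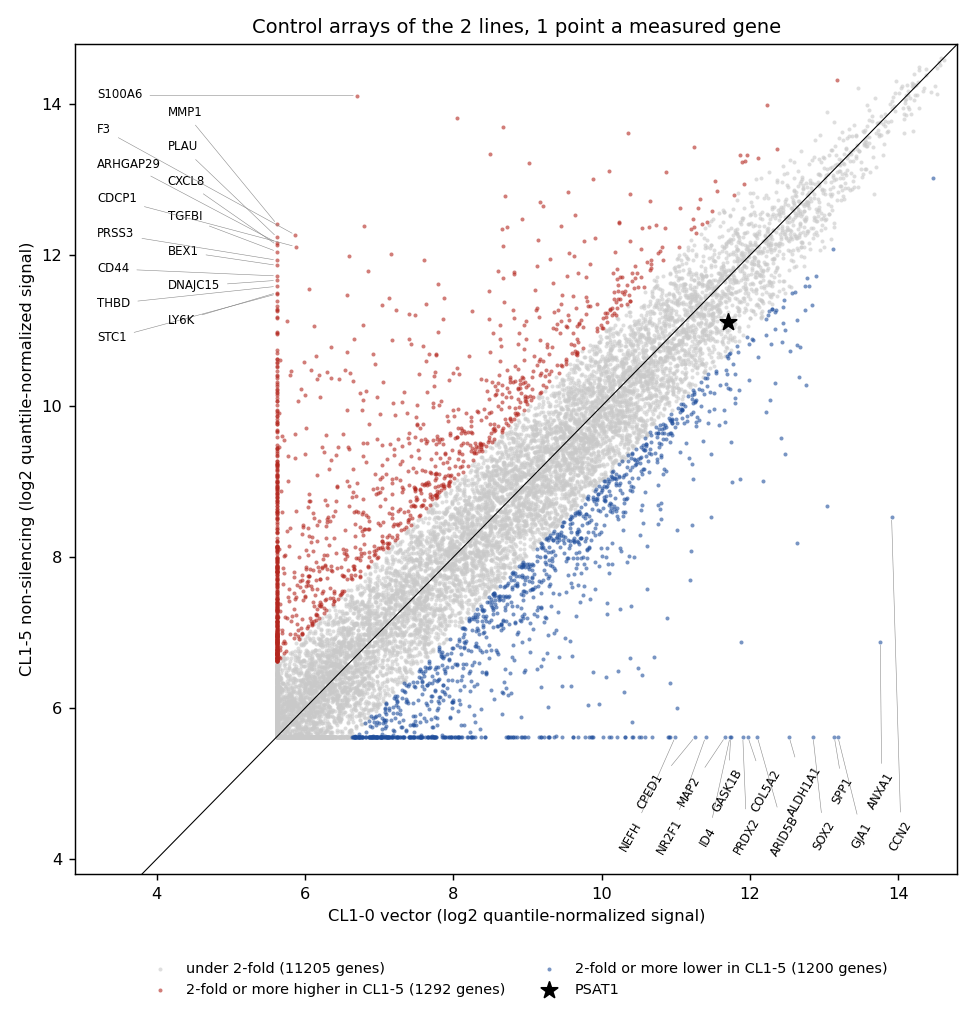
Log2 normalized signal of the CL1-0 vector array (x axis) against the CL1-5 non-silencing array (y axis), 1 point per measured gene, with the line of equal signal. Red points are the 1292 higher genes and blue points the 1200 lower ones, the points along the straight edges have 1 array at the floor, and the named genes are the 15 largest differences on each side.

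The 15 largest higher differences included secreted proteases, a coagulation factor and surface proteins. S100A6, a calcium-binding protein of the S100 family, read 104 and the floor in CL1-0 and 17743 and 15954 in CL1-5, a 169.9-fold difference. MMP1, the interstitial collagenase, was at the floor on both CL1-0 arrays and read 5441 and 5704 in CL1-5, at least 110.4-fold higher. PLAU, the urokinase plasminogen activator, was at the floor in CL1-0 and read 4833 and 3249.6 in CL1-5, at least 98.1-fold higher. In each case the CL1-5 arrays were both high and the CL1-0 arrays both at or near the floor. CD44, the hyaluronan receptor, went from the floor to 3389 and 2588, at least 68.7-fold higher, and its 7 other probe sets above the floor went the same way. CDCP1, a transmembrane glycoprotein phosphorylated by SRC kinases, read 58.7 and 61.3 against 4433 and 3359, a 75.5-fold difference.

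The remaining genes among the 15 largest were ARHGAP29, a GTPase-activating protein for RhoA, the chemokine CXCL8, the matrix protein TGFBI, tissue factor F3, the trypsinogen PRSS3, BEX1, the mitochondrial co-chaperone DNAJC15, thrombomodulin THBD, the surface antigen LY6K and stanniocalcin STC1. Their folds lay between 58.3 (STC1) and 93.2 (ARHGAP29), and all except F3 were at the floor on both CL1-0 arrays, so that these folds are bounds. Probe sets of PRSS3 share sequence with other trypsinogen genes, so the gene behind that signal is uncertain.

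On the lower side the 15 largest differences included a gap junction protein, transcription regulators and neuronal cytoskeleton proteins. GJA1, the gap junction protein connexin 43, read 9324 and 13696 in CL1-0 and was at the floor on both CL1-5 arrays, at least 189-fold lower. SPP1, the secreted matrix protein osteopontin, read 9015 and 4383 in CL1-0 and was at the floor in CL1-5, at least 183-fold lower. SOX2, a transcription factor of stem cells and of the foregut, read 7392 and 8031 in CL1-0 and was at the floor in CL1-5, at least 150.0-fold lower. All 3 were thus read at or under the floor in CL1-5 with either construct. ALDH1A1, a retinaldehyde dehydrogenase often used as a stem cell marker, read 5908 and 4731 against the floor, at least 119.8-fold lower. ANXA1, an annexin that binds membrane phospholipids, read 13863 and 16802 against 118 and 60.2, a 118-fold difference.

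CCN2, connective tissue growth factor and a target of YAP, read 15411 and 14183 against 372 and 321, 41.4-fold lower. The others among the 15 largest were the transcription regulators ARID5B, ID4 and NR2F1, the collagen chain COL5A2, the peroxiredoxin PRDX2, GASK1B, the microtubule protein MAP2, CPED1 and the heavy neurofilament chain NEFH. They were at the floor in the CL1-5 control and between at least 41.4-fold (NEFH) and at least 89.0-fold (ARID5B) lower. MAP2 and NEFH are proteins of the neuronal cytoskeleton, and MAP2 read 3262 and 3559 in CL1-0 against the floor in CL1-5.

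The lists of gene families, 48 in all, held 1009 distinct measured genes. In 31 lists higher members outnumbered lower ones and in 15 the reverse held. This tally depends on the scaling, since without it 720 of all measured genes were higher and 3402 lower. The lists were also chosen with earlier results of these data known. Cytosolic ribosomal proteins, 41 measured genes, had no member at 2-fold and a median log2 ratio of -0.07. Of 39 respiratory chain and ATP synthase genes only NDUFB7, a subunit of complex I, differed, at 2.05-fold lower, with a median of -0.12.

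**Figure D2:**
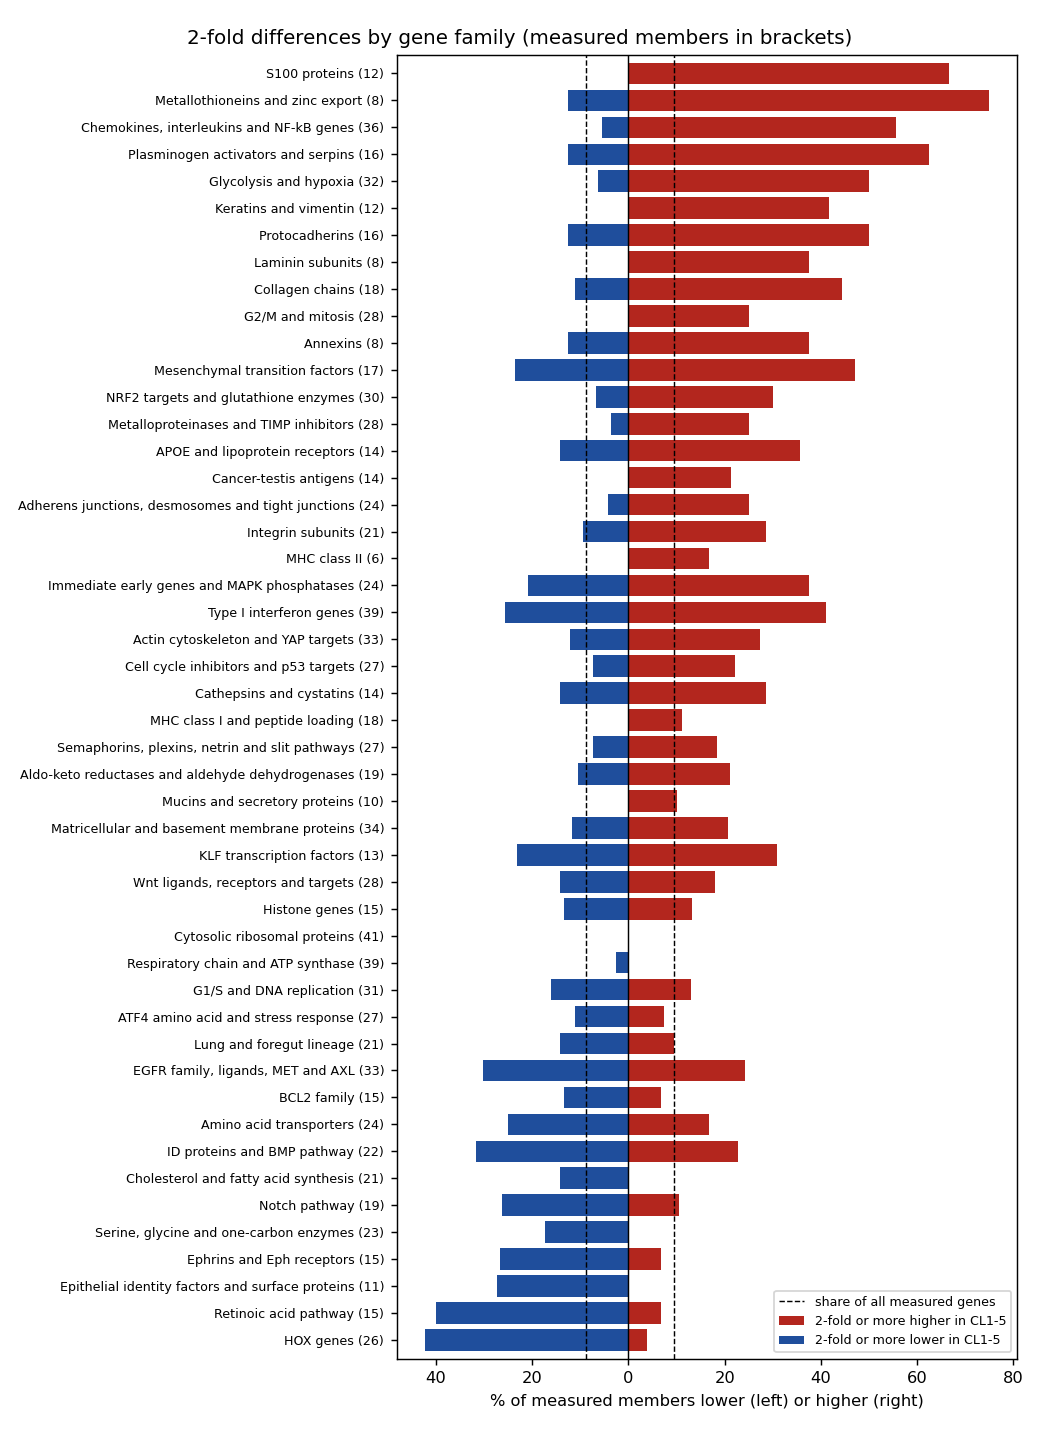
Share of the measured members of each gene list that were 2-fold or more higher (red, to the right) or lower (blue, to the left) in the CL1-5 control, with the number of measured members in brackets. Dashed lines mark 9.43% and 8.76%, the shares of all measured genes, and S100 proteins and metallothioneins extend farthest to the right and HOX genes farthest to the left.

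S100 proteins, small calcium-binding proteins that act inside and outside the cell, stood apart in CL1-5. Of 12 measured list members 8 were higher and none lower, with a median log2 ratio of 3.41 against 0.00 over all measured genes, and all 8 were 2-fold beyond CL1-0 on both arrays of each line. S100A10, a partner of annexin A2 that presents plasminogen at the cell surface, read 359.5 and 97.1 in CL1-0 and 10407 and 9803 in CL1-5, 28.9-fold higher. S100A11 went from the floor to 2450.0 and 2221, at least 49.7-fold higher. S100A16 read 111 and 84.0 against 5357 and 4387, 48.4-fold higher. The CL1-5 arrays were again close to each other for these genes.

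S100A4, a metastasis-associated member, behaved less evenly, with 169.7 and 114 in CL1-0 and 2389 and 491 in CL1-5, so the hairpin array lay well under the CL1-5 control. S100A3 showed the same spread, with 71.8 and the floor against 543 and 197. S100A2 read 94.7 and the floor against 1679 and 1934, 17.7-fold higher. S100A13 was 8.06-fold higher, but another of its probe sets went the other way. S100A5, S100A1 and S100P were dim on all arrays, with 87.2 as the highest signal, and S100PBP, which binds S100P but is no S100 protein, read 713 in the CL1-0 control and 539.8 in the CL1-5 control.

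Annexins, the membrane-binding partners of several S100 proteins, went both ways. Of 8 measured 3 were higher, and ANXA1, described above, was the only lower one. ANXA6 read 244 and 332 against 893 and 899, 3.67-fold higher. ANXA5 was 2.03-fold higher in the controls, from 3885 to 7894, and ANXA3 went from the floor to 104.

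The plasminogen system turns plasminogen into the matrix-degrading protease plasmin. Of 16 measured genes for its activators, serpin inhibitors and linked coagulation proteins, 10 were higher and 2 lower, with a median log2 ratio of 1.42. Beside PLAU, its receptor PLAUR read 141 and 138 in CL1-0 and 2771 and 2517 in CL1-5, 19.7-fold higher, so the protease and its surface anchor were both high in CL1-5. F3, the initiator of coagulation, read 58.5 and the floor against 4935 and 4882, 84.3-fold higher. THBD, thrombomodulin of the anticoagulant protein C pathway, went from the floor to 3082 and 2181, at least 62.5-fold higher.

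The tissue factor inhibitor TFPI went the other way, from 597 and 169.8 in CL1-0 to the floor in CL1-5, at least 12.1-fold lower. TFPI2 read 454 in the CL1-0 control but was at the floor in CL1-0 with PSAT1 and at 49.3 and 50.1 in CL1-5, so it separated 1 array rather than the lines. Among intracellular serpins SERPINB9, an inhibitor of granzyme B, went from the floor to 869 and 665, at least 17.6-fold higher, and SERPINB1, an inhibitor of neutrophil proteases, to 571 and 528.

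**Figure D3:**
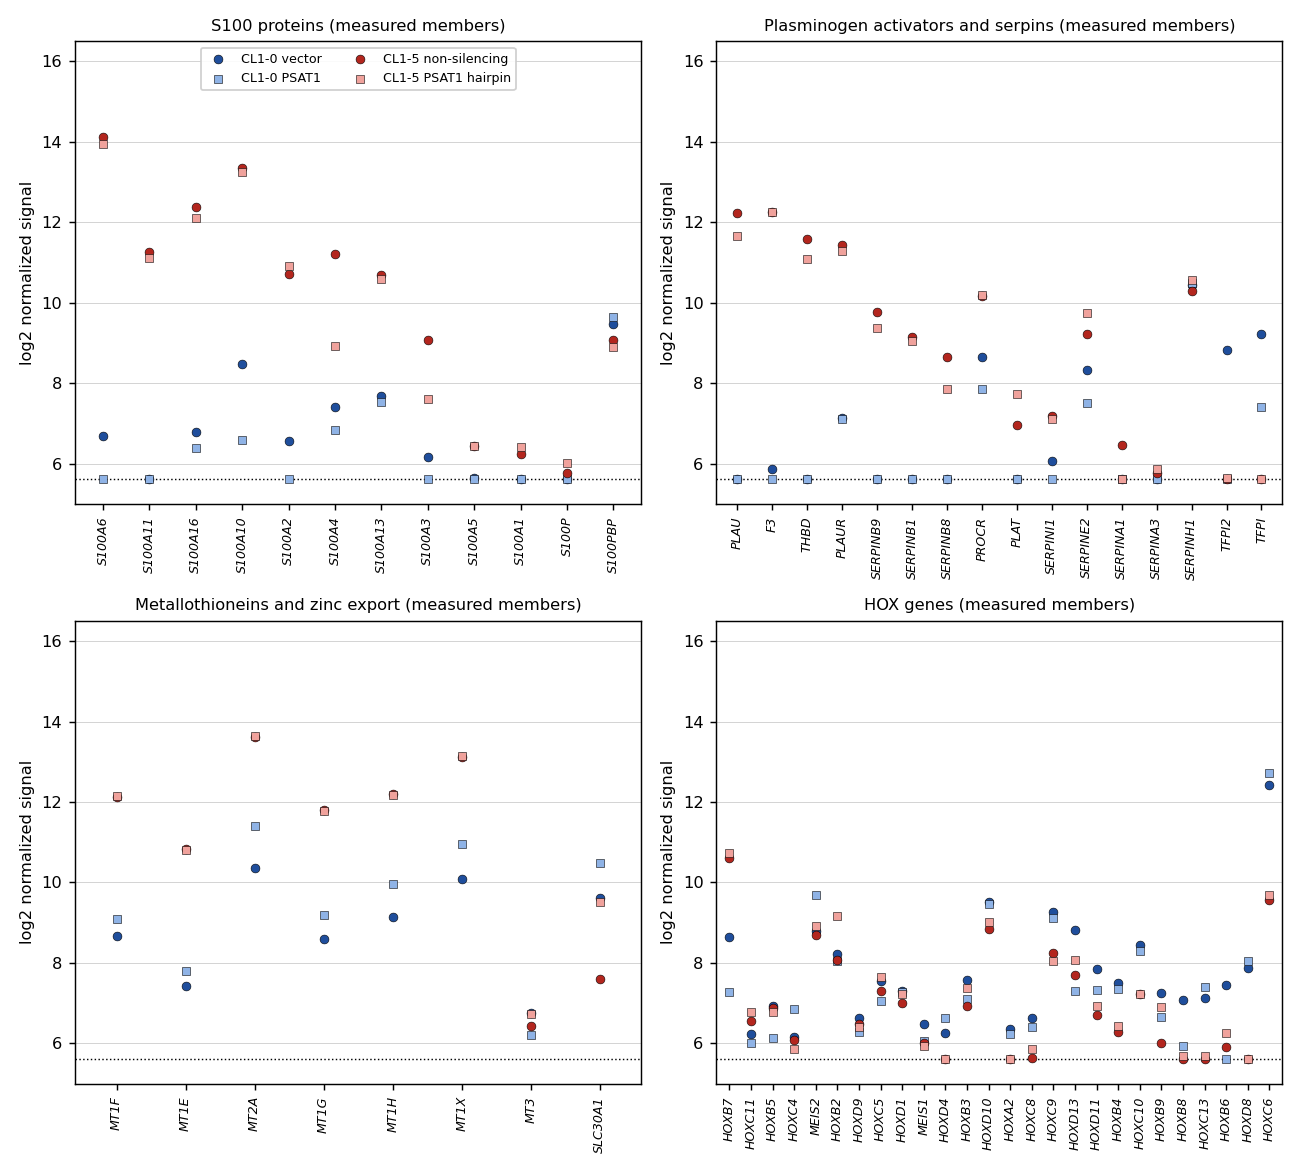
Log2 normalized signal of each measured member of 4 gene lists on all arrays, with CL1-0 in blue, CL1-5 in red, circles for controls and squares for PSAT1 constructs; the dotted line is the floor. S100A6, PLAU, F3 and the metallothionein genes MT1E to MT2A show both red points above both blue points, while most HOX genes lie lower in CL1-5.

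Most metalloproteinases and their inhibitors differed by less than 2-fold. Of 28 measured members 7 were higher and 1 lower, with a median of 0.24 that became -0.11 on unscaled signals, and the pair with PSAT1 constructs had 5 higher and 4 lower. MMP14, the membrane-anchored collagenase, read 94.6 and 83.0 against 987 and 697, a log2 ratio of 3.38. TIMP3, a matrix-bound inhibitor, read 81.9 and 106 against 1757 and 1995, 21.4-fold higher. TIMP1, the soluble inhibitor, read 233 and 1616 in CL1-0 and 2291 and 2260.2 in CL1-5, so the CL1-0 PSAT1 array approached the CL1-5 level. ADAMTS6 was lower, from 145 to the floor.

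Among cathepsins, the lysosomal proteases, CTSB read 799 and 810.2 against 5931 and 4298, 7.42-fold higher, whereas CTSC, which activates granule proteases, read 1446 and 750.5 against 92.3 and 234, 15.7-fold lower. In all 4 of 14 measured cathepsins and cystatins were higher and 2 lower.

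Collagen chains had 8 higher and 2 lower members of 18, with a median of 0.79. The basement membrane chains COL4A1 and COL4A2, encoded side by side, read 559.5 and 410.4 in the CL1-0 control and 2528 and 2669.9 in the CL1-5 control, 4.52-fold and 6.51-fold higher. COL6A1, a chain of beaded filaments, read 304 and 553 against 2452 and 2146, 8.07-fold higher. COL5A2, a chain of fibrillar collagen V, read 4017 and 6957 against the floor, at least 81.5-fold lower, so this fibrillar chain was bright in CL1-0 and not above the floor in CL1-5. The laminin chain LAMB3, part of the hemidesmosomal laminin 332, went from the floor to 2315 and 2163, at least 47.0-fold higher, and 3 of 8 laminin subunits were higher with none lower.

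Of 34 matricellular and basement membrane proteins 7 were higher and 4 lower, with a median of 0.46 that became -0.07 without scaling. LOXL2, a collagen cross-linking oxidase, read the floor and 67.6 against 1199 and 1081, at least 24.3-fold higher, although another of its probe sets disagreed. SPARC, a collagen-binding protein, went from the floor to 423 and 318, at least 8.59-fold higher. SPP1 and CCN2 were the largest lower members, followed by POSTN, periostin, which read 1645 in the CL1-0 control, 98.4 in CL1-0 with PSAT1 and the floor in CL1-5.

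Integrins, the receptors that attach cells to this matrix, had 6 higher and 2 lower members of 21 and a median of 0.35. ITGA2, the collagen-binding alpha chain, went from the floor to 1716 and 738, at least 34.8-fold higher. ITGA6, the laminin-binding chain, read 450.0 and 592 against 3529.8 and 3373, 7.84-fold higher. ITGB3, the partner of alpha V, went from the floor to 652 and 481, at least 13.2-fold higher, while ITGAV itself read 6886 and 8709 against 2478 and 1794, 2.78-fold lower. The 2 chains of that receptor therefore differed in opposite directions.

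Receptors and ligands for growth factors differed in both directions. Of 33 measured members 8 were higher and 10 lower, and the median of -0.15 changed sign under centring, to 0.15. With the mean over probe sets 8 were higher and 6 lower. EGFR, the epidermal growth factor receptor, read 59.9 and the floor against 1074 and 947, 17.9-fold higher, with another probe set going the other way. Its ligand HBEGF read 198 and 157 against 2620.3 and 2759, 13.2-fold higher, also with a discordant probe set. MET, the receptor of hepatocyte growth factor, read 71.4 and 116 against 1309.8 and 1182, 18.3-fold higher. AXL, a receptor tyrosine kinase of the TAM group, read 145 and 184 against 1876 and 2373, a log2 ratio of 3.70.

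The lower members were led by growth factors. FGF2, basic fibroblast growth factor, read 1277 and 1399 in CL1-0 and was at the floor in CL1-5, at least 25.9-fold lower. KITLG, the ligand of KIT, read 501 and 125 against the floor, at least 10.2-fold lower. PDGFC, a platelet-derived growth factor, read 808 and 478 against 149 and 127, 5.43-fold lower. FGFR3 was 4.55-fold and IGF1R, the receptor of insulin-like growth factor 1, 4.54-fold lower, and all of these separated the lines on all 4 arrays. FGF1, acidic fibroblast growth factor, went the other way, at 51.7 and the floor against 387 and 129, 7.48-fold higher.

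Of 27 semaphorin, plexin, netrin and slit pathway genes 5 were higher (18.5%) and 2 lower (7.41%), against 9.43% and 8.76% of all measured genes. NRCAM, a neuronal cell adhesion molecule, went from the floor to 1079 and 312, at least 21.9-fold higher, and the semaphorin co-receptor NRP2 from the floor to 380.3 and 139, at least 7.72-fold higher. ROBO1, the slit receptor, read 731 and 748 against 122 and 91.7, 5.97-fold lower. Ephrins and Eph receptors had 1 higher member, the ligand EFNA5, and 4 lower ones of 15.

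Several genes of epithelial and mesenchymal identity were alike in level between the lines. CDH1, the epithelial cadherin, EPCAM, the simple-epithelium keratin KRT19 and the epithelial regulators ESRP1, GRHL2 and OVOL2 were at the floor on all 4 arrays. VIM, the mesenchymal filament vimentin, was bright on all of them, with 11249 and 10950.4 in CL1-0 and 19001 and 19781 in CL1-5, a 1.69-fold difference. ZEB1, a repressor of epithelial genes, read 1003 and 1208 against 956 and 726. CDH1 at the floor, with VIM and ZEB1 present, was thus common to the lines.

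The simple-epithelium keratins KRT8 and KRT18, unlike KRT19, were nevertheless far higher in CL1-5. KRT8 read 71.2 and 55.3 in CL1-0 and 1622 and 2119 in CL1-5, 22.8-fold higher. Its partner KRT18 read 593 and 489.7 against 6415 and 6703, 10.8-fold higher. Of 12 measured keratin and filament genes 5 were higher and none lower, with a median of 0.77. Among junction genes 6 of 24 were higher and 1 lower, but without scaling 3 were higher and 6 lower, and with the mean over probe sets 2 and 2. PERP, a desmosome protein and p53 target, read 652 and 507 against 3182 and 3367, 4.88-fold higher, and DSP, desmoplakin, read 920.2 and 773 against 2579 and 2947, 2.80-fold higher. CDH2, the neural cadherin, went from the floor to 194 and 132.

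The mesenchymal transition factors moved in both directions, with 8 higher and 4 lower of 17 and a median of 0.97. SNAI2, the repressor also known as Slug, went from the floor to 1668 and 2417, at least 33.8-fold higher. SOX9, a progenitor and cartilage factor, went from the floor to 1522 and 1535, at least 30.9-fold higher. FOXC2, a forkhead factor, read the floor and 126 against 552 and 419. TWIST1 read 501 and 206 against 90.9 and 115, 5.51-fold lower, and HMGA2, an architectural chromatin protein, read 7106 and 8546 against 3079 and 2233, 2.31-fold lower with a discordant probe set. ZEB2 read 159 in the CL1-0 control and the floor on the other arrays.

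Few epithelial identity genes were measured, and 3 of 11 were lower. SPINT2, an inhibitor of membrane serine proteases, read 332 and 618 against the floor, at least 6.74-fold lower, and AP1M2, an epithelial sorting adaptor, read 567 and 576 against 197 and 254, 2.88-fold lower. CD24 read 134 and 60.2 against 57.2 and 209, so its direction differed between the pairs of arrays. The median of the list was -0.49 and changed sign, to 0.12, when arrays were centred instead.

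Of 26 measured genes of the HOX list, factors that give cells their position along the body axis, 11 were lower and 1 higher, with a median of -0.70 and 24 of 26 log2 ratios under 0, against 49.9% of all measured genes. HOXC6 read 5506 and 6726 in CL1-0 and 763 and 818 in CL1-5, 7.22-fold lower. HOXD8 read 235 and 265 against the floor, at least 4.76-fold lower. HOXB7 was the exception, at 398 and 156 against 1549 and 1695, 3.90-fold higher. Of the 11 lower members 4 were 2-fold apart on all 4 arrays, whereas 793 of the 1200 lower genes were. In the pair with PSAT1 constructs the list had 6 lower and 2 higher members and a median of -0.33, and with the mean of both arrays of each line 6 lower and 1 higher. Of the lower members HOXB6, HOXB9 and HOXD13 overlapped between the lines.

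The lung and foregut list had 2 higher (9.52%) and 3 lower (14.3%) of 21, against 9.43% and 8.76% of all measured genes. FOXA2, a forkhead factor of endoderm, went from the floor to 331 and 349, at least 6.71-fold higher. GCG, the glucagon gene, was above the floor in the CL1-0 control only, so its difference belongs to 1 array. KLF factors had 4 higher and 3 lower of 13, or 2 and 5 without scaling, with KLF6 5.14-fold higher and KLF9 at least 9.89-fold lower, the latter with a discordant probe set.

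SOX2 was among several SOX genes that were lower. Of 14 measured genes whose symbols begin with SOX 6 were lower and 2 higher. SOX5 read 914 and 938 against the floor, at least 18.5-fold lower, SOX8 read 301 and 296 against the floor, and SOX2-OT, a transcript that overlaps SOX2, read 343 and 350.3 against the floor. SOX7, an endothelial and endoderm factor, read 50.4 and the floor against 962 and 731, 19.1-fold higher. SOX4 and SOX1 were lower but each had a probe set that disagreed.

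Among symbols beginning with NR, mostly nuclear receptors, 7 of 15 were lower and 1 higher. NR2F1, the orphan receptor COUP-TF1, read 2712 and 3343 against the floor, at least 55.0-fold lower. NR6A1, the germ cell nuclear factor, read 779 and 1008 against 103 and 93.2, 7.53-fold lower. NR3C1, the glucocorticoid receptor, was the higher one, at 1145 and 1096 against 3492 and 3122, 3.05-fold. The largest differences among these symbols were thus on the lower side. The lower ones include NR2F1-AS1, which is no receptor gene, and NR4A1, whose 2 other probe sets above the floor went the other way.

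Retinoic acid genes, which act through nuclear receptors, were lower in CL1-5 at 6 of 15 measured members and higher at 1, and 5 of the 6 were 2-fold apart on all 4 arrays. ALDH1A1, which makes retinoic acid, was described above. RDH10, the retinol dehydrogenase of the step before it, read 4637 and 4696 against 515 and 485, a log2 ratio of -3.17. RARB, a retinoic acid receptor and itself a retinoid target, read 769 and 797 against 78.3 and the floor, 9.82-fold lower. CYP26B1, which degrades retinoic acid, read 1886 and 822 against 146 and 173, 12.9-fold lower with a discordant probe set. DHRS3, a retinaldehyde reductase, was the higher member, at 65.6 and 78.6 against 216 and 132, 3.29-fold. The median of the list was -0.01.

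ID proteins and the BMP pathway, which feeds them, had 7 lower and 5 higher members of 22. ID4, an inhibitor of helix-loop-helix factors, read 3407 and 1873 against the floor and 66.5, at least 69.1-fold lower. ID2, a related inhibitor listed with the foregut genes, read 6349 and 5202 against 291 and 247, 21.8-fold lower. SMAD9, a BMP signal transducer, read 962 and 935 against 192 and 179, 5.02-fold lower. The secreted BMP antagonist GREM1 went from the floor to 1187 and 695, at least 24.1-fold higher, and NOG, noggin, from the floor to 618 on the CL1-5 control but 53.5 with the hairpin. SMAD3, a transducer of TGF-beta, read 161 and 221 against 1167 and 827, 7.24-fold higher.

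In the Notch pathway the ligand JAG1 read 416 and 327 against 7089.6 and 6327, 17.1-fold higher, whereas the target HEY1 read 5689.8 and 7778 against 658 and 216, 8.65-fold lower. Of 19 members 2 were higher and 5 lower. Wnt ligands, receptors and targets had 5 higher and 4 lower of 28, or 4 and 10 without scaling, led by the receptor FZD6 at 73.7 and 119.6 against 1114 and 1167, 15.1-fold higher, and the secreted protein DKK3 at 107 and 289.5 against 1159.5 and 1069, 10.8-fold higher. FZD1 was 3.36-fold and FZD5 3.03-fold lower, so frizzled receptors differed in both directions.

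Immediate early factors and the phosphatases that restrain MAP kinases differed in both directions. Of 24 measured 9 were higher and 5 lower, and the median of 0.41 became -0.08 without scaling. Both CL1-5 arrays were far above CL1-0 for the AP-1 subunits FOSL1, at 64.2 and the floor against 1134 and 1261 (17.7-fold), and JUN, at 402 and 187 against 5195 and 4590.2 (12.9-fold). IER3, a stress-induced survival protein, read 406 and 334 against 13324 and 13013, 32.8-fold higher. DUSP5, a nuclear ERK phosphatase, read 115 and 87.8 against 3544 and 3188, 30.9-fold higher. DUSP6, the cytoplasmic ERK phosphatase, differed in the opposite direction, from 8390.2 and 7621 to 409 and 141, 20.5-fold lower. The feedback inhibitor SPRY1 read 271 and 320.1 against the floor, at least 5.50-fold lower.

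Promoters of genes with high CL1-5 signal are shown where the files bear on a motif. AP-1 binds TGACTCA or its other strand TGAGTCA, searched in the 250 bases before the start of each gene in the RefSeq promoter table for GRCh38.p14. Only genes with a promoter in that table could be searched, 10990 measured, 997 higher and 952 lower ones. The motif occurred in 4.16% of all 27305 promoters, and in 2.51% of these measured, 5.42% of these higher and 2.10% of these lower genes. Both PLAUR (chr19:43670170-43670419, minus strand) and F3 (chr1:94541760-94542009, minus strand) held 1 match, printed in capitals, and the sequences run 5′ to 3′ toward the gene.
PLAUR: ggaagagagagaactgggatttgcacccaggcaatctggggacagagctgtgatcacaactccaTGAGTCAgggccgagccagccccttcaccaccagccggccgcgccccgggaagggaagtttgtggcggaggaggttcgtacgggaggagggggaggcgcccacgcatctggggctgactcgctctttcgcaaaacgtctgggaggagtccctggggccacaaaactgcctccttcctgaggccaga
F3: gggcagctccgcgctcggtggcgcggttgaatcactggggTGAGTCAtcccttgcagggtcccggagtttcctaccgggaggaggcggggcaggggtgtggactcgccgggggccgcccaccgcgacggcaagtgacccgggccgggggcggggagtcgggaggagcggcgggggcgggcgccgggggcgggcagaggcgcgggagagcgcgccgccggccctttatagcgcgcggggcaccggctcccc
The matches describe letters and not bound sites. Of the other genes searched by name, CXCL8 and IL1A held 1 match each. PLAU, JUN, CXCL1, CXCL2, CXCL3, IL6, IL1B and ICAM1 held none in this window, so a match was not typical of these genes.

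Chemokines, interleukins and other targets of NF-kB were higher in CL1-5 at 20 of 36 measured members and lower at 2, with a median of 1.12. CXCL8, the neutrophil chemokine also called interleukin 8, was at the floor in CL1-0 and read 4493 and 2615 in CL1-5, at least 91.2-fold higher. CXCL1, a related chemokine, went from the floor to 1169 and 460.0, at least 23.7-fold higher, and CXCL2 from the floor to 964 and 397. IL1A, interleukin 1 alpha, went from the floor to 1469 and 2439.9, at least 29.8-fold higher. IL6, interleukin 6, went from the floor to 773 and 1233, at least 15.7-fold higher. On the CL1-5 arrays the chemokines were brighter in the control and the interleukins brighter with the hairpin, but all were at the floor in CL1-0.

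The lower members were CCL5 and CXCL10, chemokines that type I interferon also induces. CCL5 read 1569.9 and the floor in CL1-0 against 191 and 419 in CL1-5, and CXCL10 read 225 and the floor against 71.2 and 72.4. Their CL1-0 values lay on either side of CL1-5, so neither gene separated the lines. The NF-kB motif GGNNTTTCC, searched on both strands, was found in 5.48% of all promoters. Among genes with a listed promoter it was found in 5.42% of higher and 6.09% of lower ones. It is shown in capitals in the promoters of CXCL8 (chr4:73740319-73740568), CXCL1 (chr4:73869143-73869392) and IL6 (chr7:22726950-22727199), all on the plus strand of GRCh38.p14. These 3 were picked among the members that went from the floor to clear signal, and each held a match.
CXCL8: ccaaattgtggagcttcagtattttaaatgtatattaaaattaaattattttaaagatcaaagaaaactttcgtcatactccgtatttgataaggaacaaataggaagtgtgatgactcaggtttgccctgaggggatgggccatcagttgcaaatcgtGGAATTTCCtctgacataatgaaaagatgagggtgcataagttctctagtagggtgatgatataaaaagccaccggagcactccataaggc
CXCL1: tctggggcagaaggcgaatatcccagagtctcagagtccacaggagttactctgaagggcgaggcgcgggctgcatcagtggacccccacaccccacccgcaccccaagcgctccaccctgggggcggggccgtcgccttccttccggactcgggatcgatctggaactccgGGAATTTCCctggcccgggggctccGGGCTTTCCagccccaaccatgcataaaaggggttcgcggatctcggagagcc
IL6: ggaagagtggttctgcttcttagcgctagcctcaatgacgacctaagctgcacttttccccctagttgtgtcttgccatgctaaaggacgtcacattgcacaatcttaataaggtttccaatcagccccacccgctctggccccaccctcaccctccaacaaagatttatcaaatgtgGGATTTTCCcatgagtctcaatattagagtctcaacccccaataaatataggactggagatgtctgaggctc
CXCL1 held 2 matches and CXCL8 and IL6 held 1 each. CXCL8 also held 1 AP-1 match, while IL1A held no NF-kB match in its window.

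Type I interferon genes, which encode antiviral proteins, differed often and in both directions in the controls. Of 39 measured 16 were higher (41.0%) and 10 lower (25.6%), against 9.43% and 8.76% of all measured genes. The median of the list was 0.32. OAS3, a sensor of double-stranded RNA, read 58.5 and 52.2 in CL1-0 and 796 and 1266 in CL1-5, 13.6-fold higher. MX1, an antiviral GTPase, went from the floor to 408 and 1847, at least 8.27-fold higher. IRF9, the DNA-binding part of the interferon response factor, read 229 and 187 against 1075 and 1557, 4.69-fold higher. For these genes both CL1-5 arrays lay above both CL1-0 arrays, and the same held for all 16 higher members at 2-fold.

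The lower members did not separate the lines. IFIT1, which binds viral RNA, read 6896 in the CL1-0 control, the floor in CL1-0 with PSAT1, and 1241 and 2885 in CL1-5. RSAD2, the antiviral enzyme viperin, read 1266 and the floor against 74.2 and 297. IFI44 read 580.3 and the floor against 77.8 and 142. None of the 10 lower members was 2-fold apart on all 4 arrays, with the CL1-0 vector array high and the CL1-0 PSAT1 array low. In the pair made of the PSAT1 arrays 35 of 39 members were higher and none lower, with a median of 2.70. The balance of this list therefore differed between the pairs of arrays. The same arrays gave 10 higher members of 19 for MHC class I and peptide loading, against 2 of 18 in the controls, where PSMB8, an immunoproteasome subunit, went from the floor to 462 and 1367.

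**Figure D4:**
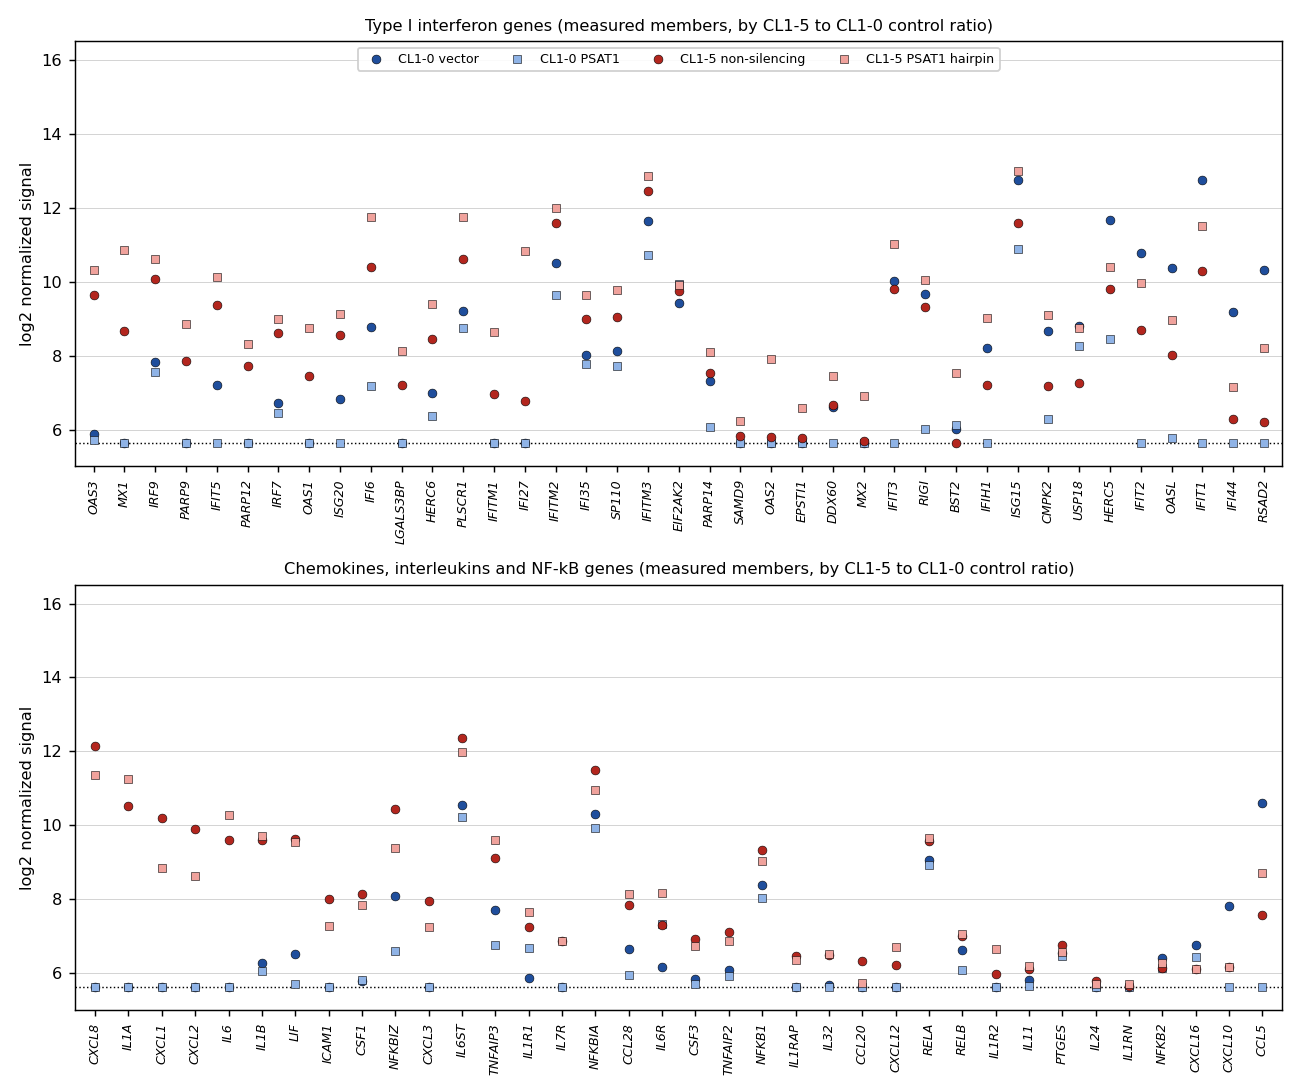
Log2 normalized signal of measured type I interferon genes (top) and chemokine, interleukin and NF-kB genes (bottom) on all 4 arrays, ordered by the control ratio; colours separate the lines, circles are controls, squares are PSAT1 constructs and the dotted line is the floor. Lower interferon genes such as IFIT1 and RSAD2 have the CL1-0 vector point on top and the CL1-0 PSAT1 point at the floor, while CXCL8, IL1A, CXCL1, CXCL2 and IL6 have both CL1-0 points at the floor.

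Metallothioneins, small proteins that bind zinc and copper, were higher in CL1-5 at all 6 measured MT1 and MT2 genes. MT2A read 1310.4 and 2697 in CL1-0 and 12643 and 12661 in CL1-5, 9.65-fold higher. MT1X read 1093 and 1981 against 8901 and 8993, 8.15-fold higher. MT1F read 407 and 541 against 4482 and 4516, a log2 ratio of 3.46, and MT1E, MT1G and MT1H were 10.5-fold, 9.11-fold and 8.37-fold higher. CL1-5 arrays were almost equal at each gene, and CL1-0 with PSAT1 was above the CL1-0 control at each. These probe sets share sequence, so the split of the signal between genes is uncertain, and without probe sets that match several transcripts no MT1 or MT2 gene was left to measure. MT3, the brain form, read 108 and 74.3 against 86.3 and 106. SLC30A1, the zinc exporter, read 779 and 1442 against 194 and 737, so it was 4.02-fold lower in the controls while the hairpin array was close to the CL1-0 control.

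The metal response element, TGCACNC or TGCGCNC on either strand, is bound by the zinc-sensing factor MTF1. The promoters of MT2A (chr16:56608334-56608583, plus strand), MT1X (chr16:56682220-56682469, plus strand) and MT1H (chr16:56669564-56669813, plus strand) are shown because these genes moved together, with each match in capitals.
MT2A: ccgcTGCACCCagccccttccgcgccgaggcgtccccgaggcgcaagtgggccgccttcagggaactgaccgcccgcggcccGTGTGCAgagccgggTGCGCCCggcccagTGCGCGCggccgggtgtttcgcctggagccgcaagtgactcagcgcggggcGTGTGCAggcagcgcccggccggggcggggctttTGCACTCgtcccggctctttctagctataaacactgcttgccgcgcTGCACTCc
MT1X: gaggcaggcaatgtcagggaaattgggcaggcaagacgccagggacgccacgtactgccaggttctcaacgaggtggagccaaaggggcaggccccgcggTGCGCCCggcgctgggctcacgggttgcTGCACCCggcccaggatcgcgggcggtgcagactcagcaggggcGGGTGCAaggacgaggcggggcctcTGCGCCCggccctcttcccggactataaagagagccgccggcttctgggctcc
MT1H: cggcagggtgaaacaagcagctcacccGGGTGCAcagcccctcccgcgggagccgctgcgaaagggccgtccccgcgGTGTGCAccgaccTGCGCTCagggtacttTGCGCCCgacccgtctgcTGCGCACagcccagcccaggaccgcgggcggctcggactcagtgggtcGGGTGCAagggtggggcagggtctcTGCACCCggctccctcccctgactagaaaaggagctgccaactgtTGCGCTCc
MT2A held 7 matches, MT1X 4 and MT1H 8, whereas 0.366% of all promoters held 4 or more. At least 1 match occurred in 24.7% of all promoters and in 33.3% of both higher and lower genes with a listed promoter. The presence of a match thus did not set the higher genes apart. SLC30A1 held 1 match.

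Of 32 glycolysis and hypoxia genes 16 were higher and 2 lower in the controls, with a median of 0.94, but the pair of PSAT1 arrays had 8 higher and 2 lower and a median of 0.46. NDRG1, a stress-response gene induced by hypoxia, read 143 and 149 against 4127 and 2589.6, 28.8-fold higher. ENO2, the neuronal enolase, went from the floor to 547 and 397, at least 11.1-fold higher. The glucose transporters diverged, with SLC2A1 at 123 and 118 against 548 and 517 (4.46-fold higher) and SLC2A3 at 3720.0 and 3611 against 525 and 504 (7.09-fold lower). ADM, the hypoxia-induced peptide adrenomedullin, read 2341 and 4554 against 207 and 266, 11.3-fold lower.

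Serine, glycine and one-carbon enzymes, the pathway that PSAT1 belongs to, had no higher and 4 lower members of 23, with a median of -0.35, and all 4 were 2-fold apart on all 4 arrays. PHGDH, the first enzyme of serine synthesis, read 1491 and 1971 against 550.5 and 708, 2.71-fold lower. GLDC, the glycine-cleaving dehydrogenase, read 1218 and 807 against 159.7 and 100.5, 7.63-fold lower. CBS, which joins serine and homocysteine, was 2.32-fold lower, and the amino acid carrier SLC38A1 was 2.78-fold lower with a discordant probe set. PSPH, the last enzyme of serine synthesis, and SHMT2, the mitochondrial serine hydroxymethyltransferase, differed by 1.16-fold and 1.30-fold.

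Targets of ATF4, a stress factor that induces amino acid genes, had 2 higher (7.41%) and 3 lower (11.1%) of 27, near the shares of all measured genes. ASNS, asparagine synthetase, read 3569 and 4005 against 1103 and 1044 (3.24-fold lower), and ATF3 was 4.19-fold lower. The pair with PSAT1 constructs had 13 lower and none higher. Cholesterol and fatty acid synthesis had 3 lower of 21 (14.3%, against 8.76% of all measured genes). HMGCS1, the 3-hydroxy-3-methylglutaryl-CoA synthase, was among them at 2.99-fold. Of 24 amino acid transporters 4 were higher and 6 lower. SLC6A8, the creatine transporter, read 1075 and 1159.9 against 152 and 173, 7.08-fold lower, and SLC7A7, a light chain for cationic amino acids, went from the floor to 619 and 442, at least 12.5-fold higher.

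Antioxidant genes under NRF2 and the glutathione enzymes had 9 higher and 2 lower of 30, with a median of 0.57. Without scaling the list had 5 higher and 5 lower and a median of 0.09. The microsomal glutathione transferase MGST1 went from the floor to 2296 and 2608, at least 46.6-fold higher. Malic enzyme ME1 read 63.5 and the floor against 1539 and 1259, 24.2-fold higher. SLC7A11, the cystine importer, read 3443 and 4859 against 736 and 612, 4.68-fold lower, opposite to these 2 genes.

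Regulators of the cell cycle held large differences in both directions. CDK6, a kinase of the G1 phase, read 69.6 and the floor against 2141 and 1865, 30.8-fold higher. CCND2, a D-type cyclin, read 276 and 69.7 against the floor. The kinase inhibitor CDKN1A read 76.2 and 61.4 against 672 and 553, 8.82-fold higher, and GADD45A, a damage-induced gene, read 574 and 877 against 6664 and 5615, 11.6-fold higher. CDKN2A, which encodes the CDK4 and CDK6 inhibitor p16, read 480.2 and 478 against the floor, at least 9.74-fold lower.

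Of 28 genes of G2 and mitosis 7 were higher and none lower in the controls, with TOP2A, topoisomerase 2 alpha, at 3991 and 5815 against 10261 and 7566. None of the 7 was 2-fold apart on all 4 arrays, the pair with PSAT1 constructs had 0 higher and 1 lower, and unscaled signals gave 0 higher and 3 lower. G1/S and replication genes had 4 higher (12.9%) and 5 lower (16.1%) of 31, against 9.43% and 8.76% of all measured genes. In the pair with PSAT1 constructs the G1/S and replication list had 4 higher and none lower.

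The actin cytoskeleton and YAP list had 9 higher and 4 lower members of 33 and a median of 0.13, against 5 higher, 8 lower and -0.46 without scaling. The caveolae proteins CAV1 and CAV2 went from the floor to 1585 and 1277 in the CL1-5 control and to 859 and 817 with the hairpin, at least 32.1-fold and 25.9-fold higher. WWTR1, the YAP paralogue TAZ, read 739 and 557 against 3381 and 2928, 4.58-fold higher, while the YAP targets ANKRD1 and AJUBA were lower, at 626 and 317 against the floor and 71.9, and at 2381 and 2668 against 603 and 739. CCN2, a YAP target described above, was lower too. The list mixes cytoskeleton genes with YAP targets, so its counts give no direction for YAP targets as a set.

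Protocadherins of the beta cluster, neuronal adhesion proteins encoded in tandem, were higher at 8 of 10 measured genes whose symbols begin with PCDHB (80.0%), the highest share among 171 symbol roots scanned, each with 10 or more measured genes. PCDHB5 went from the floor to 587 and 731, at least 11.9-fold higher, and PCDHB2 from the floor to 319 and 442, at least 6.47-fold higher. Their probe sets resemble each other, so single genes are uncertain. Outside the cluster PCDH9 read 2067 and 2733 against 64.3 and 59.6, 32.2-fold lower. Symbols beginning with PRSS, trypsin-type proteases and some pseudogenes, followed with 5 of 12 (41.7%), among them PRSS23 at 234 and the floor against 2777 and 2626. PRSS2, PRSS3 and the pseudogene PRSS3P2 are also among the 5. Their probe sets share sequence, so these calls may not be independent.

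The other roots with the highest shares of higher genes were DHRS (40.0%), ITGA (40.0%) and COL (36.4%), against 9.43% of all measured genes. DHRS2, a mitochondrial short-chain reductase, read 110.0 and 131 against 2151 and 4478, 19.5-fold higher. The roots with the highest shares of lower genes were NR (46.7%), SOX (42.9%), CHD (40.0%), PDE (37.5%) and DNAAF (30.0%), against 8.76% of all measured genes. DNAAF did not lean lower, with 3 lower and 2 higher of 10 and a median log2 ratio of 0.18. PDE4B, a phosphodiesterase that degrades cyclic AMP, read 1369 and 1532 against the floor, at least 27.8-fold lower, and was the largest of 6 lower PDE genes out of 16. These shares were chosen as the highest of the scan and carry no test.

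Cancer-testis antigens, germline proteins that tumours re-express, were high in 3 of 14 measured genes and lower in none. MAGEA11 went from the floor to 651 and 1323 and MAGEB2 from the floor to 503 and 1173, at least 13.2-fold and 10.2-fold higher, and probe sets of the MAGEA genes share sequence. CTAG2 read 4412 and 4444 against 9989 and 10515, 2.26-fold higher. ABCA1, a cholesterol exporter in the list of APOE and lipoprotein receptor genes, went from the floor to 1541 and 1147, at least 31.3-fold higher, while APOC1, an apolipoprotein, read 2356 and 2626 against 270.2 and 346, 8.72-fold lower.

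Genes that lie next to each other also differed together in places. Over 13343 runs of 15 neighbouring measured genes, the median log2 ratio of a run lay between -0.67 and 0.54 for the central 95%. The highest run, from S100A10 to S100A13, had a median of 2.92, with 8 higher genes and none lower. The runs from INA to ITPRIP and from FGF1 to AFAP1L1 had medians of 1.22 and 1.13, with 8 and 9 higher genes. The run from INA also held 1 lower gene, and the medians in the second pair were 0.82 and 0.78. In the run from INA, SH3PXD2A, a scaffold of invadopodia, read 96.8 and 118 against 691 and 427, 7.14-fold higher.

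Among the lowest runs, that from SMARCD3 to INSIG1 had a median of -1.36 with 8 lower genes and none higher, and -1.23 in the second pair. It held ACTR3B, an actin-related protein, at 684 and 717 against 155 and 127, 4.40-fold lower. The run from RBM17 to UPF2 had a median of -1.16 and 9 lower genes, and a median of -0.71 in the second pair. It held CELF2, an RNA-binding protein, at 1192 and 1334 in CL1-0 and 13.2-fold lower in CL1-5. The run from ITPRID2 to OSGEPL1 had a median of -1.18 in the controls but 0.00 in the second pair. No copy number was measured here.

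**Figure D5:**
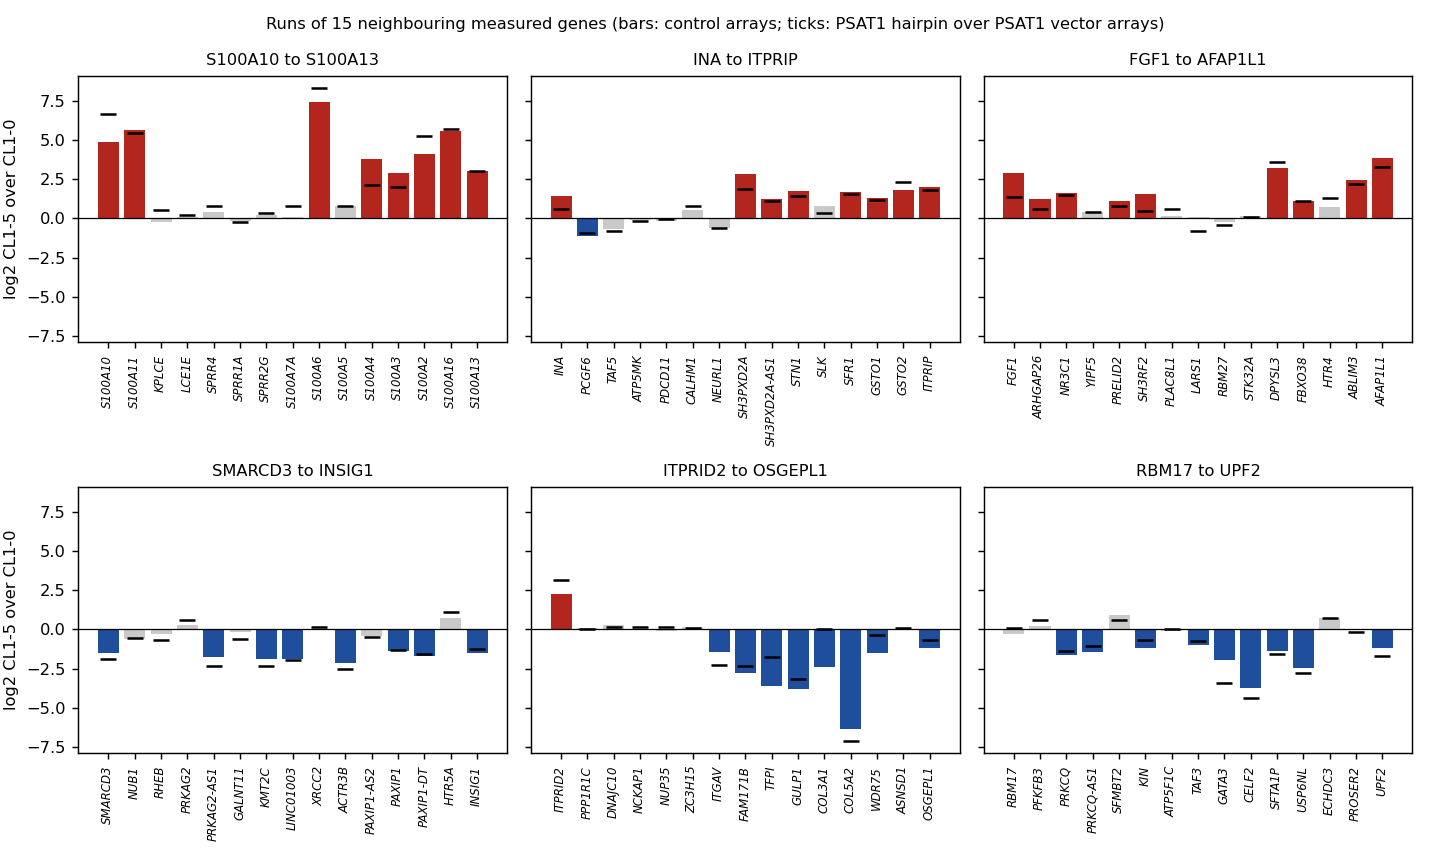
Log2 ratio of CL1-5 over CL1-0 for the 15 genes of each of the 3 highest (top) and 3 lowest (bottom) runs of neighbouring measured genes, in chromosome order. Bars are the control arrays, red where 2-fold or more higher and blue where 2-fold or more lower, and black ticks are the PSAT1 hairpin over PSAT1 vector arrays; the S100 run shows its 8 red bars beside genes under 2-fold.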

How the data were processed

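Per the labels, total RNA of 4 groups was hybridised to 1 Affymetrix array each. The deposited values are linear intensity per probe set, made by the authors with MAS5, per the submitters' processing notes, with version and scaling target not given in the sources used here. Control probe sets (62 of 54675) were left out, log2 values of all 4 arrays were quantile normalized (numpy 2.4.6, pandas 2.3.3, Python 3.11.15), and values under the pooled median were floored. The platform annotation gave 1 symbol to 41097 probe sets, of which 41043 were found in a RefSeq gene table. Probe sets with several symbols or no listed gene named nothing, and 59 probe sets of Y-linked and X-inactivation genes were dropped. A gene was its probe set with the highest mean over the 4 arrays. Family members were summarised by counts and medians. The number of arrays limits precision. The script was checked on simulated data.

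Named genes were PSAT1, the 15 largest differences per direction among genes at or above the pooled 75th percentile on the brighter control array, with no discordant probe set and no overlap between lines, up to 5 per direction of each list, root or run, and whole small families. Marker genes and genes common to the lines at the floor were named from the fixed lists. The members and lists were chosen with earlier results of these data known. Alternatives were no scaling, median centring, floors at the 25th and 65th percentile, the mean over probe sets, no multi-transcript probe sets, the other pair of arrays, the mean of both arrays of a line and a 3-fold call.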

Additional observations from a re-analysis of the deposited data

How the results depend on the processing

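The counts of 1292 higher and 1200 lower genes stayed within 1.5 times under centring, both other floors, the other pair of arrays, the mean of both arrays per line and the removal of multi-transcript probe sets. Without scaling they were 720 and 3402. With the mean over a gene's probe sets 749 were lower and 863 higher, and at 3-fold 632 were higher and 429 lower. Of 291 named genes, 257 kept their call without scaling, 281 under centring and 225 with the mean over probe sets. Reversals occurred only in 3 settings. In the pair with PSAT1 constructs (227 of 284 calls kept) the log2 ratios became CD24 1.79, TFPI2 0.02, HOXB6 0.64, DKK1 1.52, RSAD2 2.59, IFI44 1.52, IFIT1 5.87, OASL 3.19, IFIT2 4.34, CCL5 3.09, CXCL10 0.56, VLDLR -0.88, MCM10 0.09 and SLC1A3 0.24. With the mean of both arrays they became CD24 0.28, DKK1 0.12, IFIT1 1.70, OASL 0.42, IFIT2 1.14 and CCL5 0.02. Without multi-transcript probe sets HES1 became -0.02 and MYL9 0.24. The cause was not tested. No paired analysis was possible because each group has 1 array and the labels carry no replicate numbers. Genes near the floor carry only bounds, which 389 of the higher and 245 of the lower calls rest on, and the SD of log2 ratios between probe sets of a gene, 0.566, is no replicate error.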

Other observations

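Genes outside the lists were looked at after their values were seen. LIN28A, an RNA-binding protein of embryonic cells that blocks let-7 maturation, read 1455 and 563 in CL1-0 and was at the floor in CL1-5, at least 29.5-fold lower. Its paralogue LIN28B read 4742 and 2597 against 967 and 797, a log2 ratio of -2.29. DPPA2, a gene of pluripotent cells, read 1907 and 1974 against the floor, at least 38.7-fold lower. LIN28A and DPPA2 were thus not above the floor in CL1-5, whereas LIN28B remained well above it.

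MTAP, the methylthioadenosine phosphorylase encoded next to CDKN2A, read 278 and 155 in CL1-0 and was at the floor on both CL1-5 arrays, at least 5.63-fold lower. KLHL9, a ubiquitin ligase adaptor of the same region, read 579 and 731 against the floor, at least 11.7-fold lower. CDKN2B, the neighbour of CDKN2A on its other side, was at the floor on all 4 arrays. These genes were picked after their values were seen, and copy number was not analysed here.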
